A study of Triticum aestivum with 18 samples.

Results

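The loci described here are those that the annotation deposited with the expression table names as pyruvate decarboxylase or L-lactate dehydrogenase, the enzymes that stand at the head of the ethanol and the lactate branch of fermentation. They were found by a search of the description text, ignoring case, and were to be chosen by their mean FPKM over the 18 libraries if more than 10 matched. FPKM counts the fragments of a locus, scaled for its exon length and for the depth of the library. The search returned 4 of 94141 loci, all of them L-lactate dehydrogenases, and 0 loci whose description holds pyruvate decarboxylase, so no locus was dropped by the limit and none lies just outside it. The mean FPKM that ordered the loci was 27.4 for MSTRG.34414, 14.4 for MSTRG.34411, 1.28 for TraesCS7A02G487400 and 0.199 for TraesCS7D02G410800. To keep the pyruvate decarboxylases in view, loci that carry the enzyme code and the Gene Ontology term of either activity were set beside these 4. That list was made after the annotation columns had been seen. It holds 25 loci, namely the 4 described ones, 7 further L-lactate dehydrogenase loci and 14 pyruvate decarboxylase loci. Another 20 loci with a matching enzyme code but without the Gene Ontology term were left out, among them 3 described as phytochelatin synthase and 3 as xyloglucan 6-xylosyltransferase. The study names TraesCS2B02G341200 as an L-lactate dehydrogenase gene, and gives the same identifier for a glycosyltransferase gene. That gene is not among the 25 loci and was not examined here.

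When oxygen is short, mitochondria cannot reoxidize NADH, and cells keep glycolysis running by passing the electrons of NADH to a product of pyruvate. Pyruvate decarboxylase splits pyruvate into carbon dioxide and acetaldehyde, which alcohol dehydrogenase reduces to ethanol, whereas L-lactate dehydrogenase reduces pyruvate directly to lactate. Germinating cereal grain is known for both routes, because its dense tissues and submerged coats limit the entry of oxygen.

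Seeds of 3 varieties of bread wheat (Triticum aestivum) were sequenced after 72 h of germination, with the radicle and coleoptile removed. The varieties were ‘Zhoumai 22’ (ZM22, which the study calls waterlogging-intolerant), ‘Bainong 207’ (BN207, medium) and ‘Bainong 607’ (BN607, tolerant). In the waterlogging groups (W72_ZM22, W72_BN207 and W72_BN607) seeds were held for 72 h in a beaker under 10 cm of water and then moved to a dish to germinate, and in the control groups (C72_ZM22, C72_BN207 and C72_BN607) seeds imbibed for 24 h before germination. This is the treatment as the labels give it, whereas the study's methods describe submergence in Petri dishes and a control without waterlogging. Each of the 6 groups holds 3 libraries. Each group is 1 time point of 1 variety. By these labels the waterlogged seeds were sampled after germination in the dish, not under water. The time since first wetting also differed between the treatments, and its part cannot be told apart from that of waterlogging. Every library pools whole seed tissue, so that fewer cells of a type and less RNA per cell cannot be told apart.

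The summed counts ran from 68754539 to 107712576 per library, with a median of 97690339. In 17 libraries between 82.1% and 100% of the transcripts found only in the labelled variety were detected, and at most 13.6% of those of another variety. The library labelled W72_BN207 replicate 1 stood apart, with 0 of 57 BN207 transcripts and 121 of 121 BN607 transcripts detected, so the fitted estimates, calls and share tests of the fermentation loci that use it are given with and without it. Means and ranges of BN207 include it unless stated. The alpha-amylase level fitted seed: summed, this starch-degrading enzyme of aleurone and scutellum was 1650 to 42100 FPKM. The 6 Casparian strip loci of root summed to 8.24 FPKM in C72_ZM22 replicate 3 and to at most 1.62 FPKM in any other library. Histone and mitotic cyclin genes, which mark dividing tissue, differed between libraries, also within a group. Their median over 232 tested loci ran from 1.32 to 6.26 on the log2(FPKM + 1) scale over the 18 libraries. Within C72_ZM22 it ran from 1.32 to 4.2, and within C72_BN607 from 4.23 to 5.41.

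All 4 described loci lie on homoeologous group 7, in IWGSC RefSeq v1.0 coordinates of the table. MSTRG.34411 (TraesCS7B02G317500) covers positions 567635382 to 567636464 of chromosome 7B on the plus strand, and MSTRG.34414 (TraesCS7B02G317900) covers 567883814 to 567884896 of the same chromosome on the minus strand. Both span 1083 bases, are described as L-lactate dehydrogenase A, and are separated by 247349 bases. TraesCS7A02G487400, described as L-lactate dehydrogenase B, lies on chromosome 7A at 677847606 to 677851224, and TraesCS7D02G410800, described as L-lactate dehydrogenase A, lies on chromosome 7D at 529773179 to 529774299, both on the minus strand. The loci were placed together by description and chromosome group, not by sequence, and no sequence of them was at hand. Reads of near-identical copies can be divided between them by the assembler, so the level of each 7B locus taken alone is uncertain.

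The 7B loci were transcribed at 20.3 to 168 FPKM in 5 of 6 ZM22 libraries, at intermediate or low levels in BN207 and close to 0 in most BN607 libraries. MSTRG.34414 measured 168, 65.8 and 0.213 FPKM in replicates 1 to 3 of C72_ZM22 and 106, 34.0 and 38.4 FPKM in W72_ZM22. In C72_BN207 it measured 44.5, 11 and 0.62 FPKM, and in W72_BN207 0.197, 14.7 and 0.952 FPKM. In C72_BN607 it measured 0.344, 0.0269 and 8.23 FPKM, and in W72_BN607 0.292, 0.0975 and 0.0934 FPKM. It thus reached 1 FPKM in 5 of 6 ZM22, 3 of 6 BN207 and 1 of 6 BN607 libraries, and control and waterlogging values overlapped in every variety.

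The other 7B copy, MSTRG.34411, followed the same order at a lower level. It stood at 78.3, 29.3 and 0.298 FPKM in C72_ZM22 and at 46.6, 20.3 and 38.7 FPKM in W72_ZM22. Its BN207 values were 26.5, 6.85 and 0.0967 FPKM in the control and 0.278, 11.1 and 0 FPKM after waterlogging. In BN607 the control libraries gave 0.237, 0 and 0.0325 FPKM and the waterlogged ones 0, 0.0659 and 0.189 FPKM. The 6 BN607 libraries lay below all 6 ZM22 libraries, since the highest BN607 value of 0.237 FPKM was under the lowest ZM22 value of 0.298 FPKM. At counts of at most 28 per BN607 library, these values are close to the limit of detection.

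The A and D copies were weak throughout. TraesCS7A02G487400 gave 3.55, 1.32 and 1.28 FPKM in C72_ZM22 and 1.91, 0.654 and 0.307 FPKM in W72_ZM22. It gave 4.03, 0.389 and 0.243 FPKM in C72_BN207 and 0.992, 0.783 and 2.23 FPKM in W72_BN207. In BN607 it gave 0.585, 0.796 and 0.361 FPKM under control and 2.74, 0.269 and 0.555 FPKM after waterlogging. Control and waterlogged libraries overlapped in each variety for the 7A copy, which unlike the 7B copies kept a count of at least 23 in each library.

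TraesCS7D02G410800 gave 1.10, 0.343 and 0 FPKM in C72_ZM22 and 1.25, 0.297 and 0.394 FPKM in W72_ZM22, and outside ZM22 it was found only in C72_BN207 replicate 1, at 0.199 FPKM. It was at 0 counts in all 6 BN607 libraries. With a floor of 3 counts in each BN607 library, its mean in ZM22 of 0.674 CPM (counts scaled to library size) was at least 21.1-fold higher. It did not reach 1 FPKM in 3 libraries and was left out of the fits, which 3 of the 4 loci entered.

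**Figure D1:**
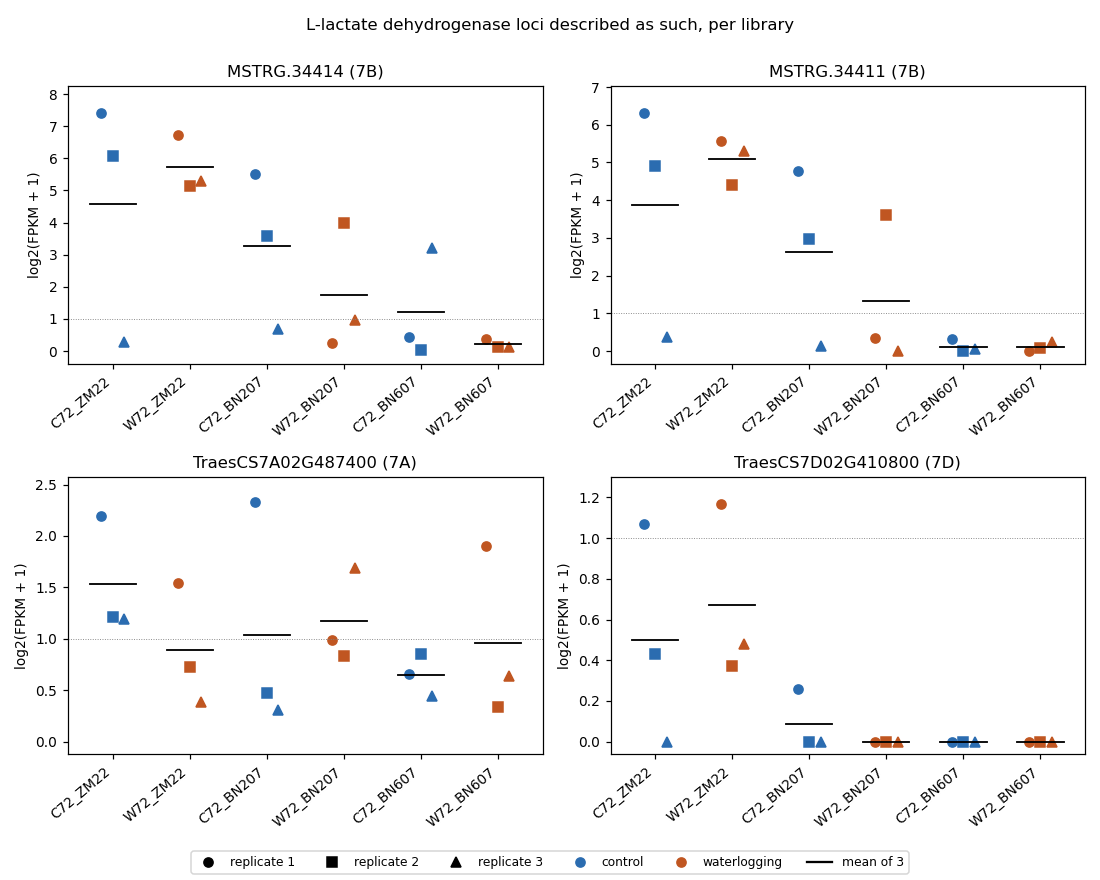
Level of the 4 described L-lactate dehydrogenase loci in each library, as log2(FPKM + 1), by group, with control in blue, waterlogging in orange, a symbol per replicate number, a bar for the mean of 3 libraries and a dotted line at 1 FPKM. Both 7B loci are high in 5 of 6 ZM22 libraries, with C72_ZM22 replicate 3 near 0, and the highest BN607 value of MSTRG.34411 is 0.237 FPKM.

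After germination in the dish, no tested L-lactate dehydrogenase locus differed detectably between waterlogged and control seeds in any variety. The errors were wide, and levels during the time under water were not measured. In the edgeR quasi-likelihood fit over 50656 loci, MSTRG.34414 had a log2 fold change (waterlogging minus control) of -0.57 ± 1.94 (SE) in ZM22, -1.98 ± 2.01 in BN207 and -3.73 ± 2.23 in BN607, each with an edgeR adjusted p of 1. Intervals of 2 SE on either side ran from -4.46 to 3.32 in ZM22, from -6.00 to 2.05 in BN207 and from -8.18 to 0.73 in BN607, so that changes of many-fold in either direction lie inside the ZM22 interval. The BN607 estimate rested on C72_BN607 replicate 3, without which it was 0.06. The BN207 estimate was -1.41 without the library labelled W72_BN207 replicate 1. Averaged over the varieties the change was -2.09 ± 1.18 with an edgeR adjusted p of 1, and it was -1.90 without that library.

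For MSTRG.34411 the edgeR estimates were -0.22 ± 1.98 in ZM22, -1.73 ± 2.04 in BN207, -0.03 ± 2.35 in BN607 and -0.66 ± 1.21 on average, and for the 7A copy they were -1.18 ± 1.2, -0.28 ± 1.18, 1.53 ± 1.21 and 0.02 ± 0.67 in the same order. All had an adjusted p of 1. Without W72_BN207 replicate 1 the BN207 estimates were -1.18 for MSTRG.34411 and -0.05 for the 7A copy, and the averages -0.48 and 0.10. None of the 3 loci separated waterlogged from control libraries in any variety, where 1.83% of tested loci lay higher and 1.57% lower without overlap in ZM22, 1.66% and 1.95% in BN207, and 1.49% and 7.95% in BN607. Differences of the response between varieties ranged from -3.16 to 2.71 over the 3 loci and the 3 pairs of varieties, all with an edgeR adjusted p of 1 and 0 of 9 at an unadjusted p below 0.05, beside 0.00395% of all loci called for BN207 against ZM22 and BN607 against ZM22 and 0.0% for BN607 against BN207 (1.49%, 1.37% and 1.36% at an unadjusted p below 0.05). Without W72_BN207 replicate 1 those differences had the same range and 0 of 9 were called. The background in these contrasts was itself almost empty: 0.00592% of tested loci passed an adjusted p below 0.05 in ZM22, 0.0% in BN207 and BN607 and 0.00197% on average. At an unadjusted p below 0.05 the edgeR test returned 1.09%, 1.89%, 2.12% and 2.72% of all loci in that order and 0 of the 3 L-lactate dehydrogenase loci. DESeq2 called 144 genes for ZM22, 274 for BN207 and 34 for BN607, and none of the 3 loci.

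Between varieties, the 7B copies were lower in BN607 than in ZM22 while the 7A copy did not pass the test. Averaged over both treatments, MSTRG.34414 fell by 6.88 ± 1.79 on the log2 scale from ZM22 to BN607 (edgeR adjusted p = 0.0252), from a mean of 68.7 ± 60.2 FPKM (SD, n = 6) to 1.51 ± 3.29 FPKM. MSTRG.34411 fell by 8.95 ± 2.0 (edgeR adjusted p = 0.0120), from 35.6 ± 26.4 FPKM to 0.0875 ± 0.102 FPKM. The 7A copy differed by -0.89 ± 0.85 (edgeR adjusted p = 0.508, 2 SE interval -2.58 to 0.80), with means of 1.5 ± 1.15 and 0.885 ± 0.928 FPKM. In this contrast 10.6% of all tested loci passed, with 6.80% of all tested loci lower and 3.84% higher in BN607, and 2.79% lay lower in BN607 without overlap, as MSTRG.34411 did. A locus that is near 0 in every variety is not tested, so the number of L-lactate dehydrogenase loci that passed carries no weight of its own.

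The 2 calls differed in how firmly they stood. MSTRG.34411 stayed below an adjusted p of 0.05 in each of 18 edgeR fits that left out 1 library, with values between -10.16 and -8.30. MSTRG.34414 kept its direction in all 18, between -8.77 and -6.25, but its adjusted p rose above 0.05 without C72_ZM22 replicate 1 (0.0534), W72_ZM22 replicate 1 (0.0506), C72_BN607 replicate 1 (0.0746), C72_BN607 replicate 2 (0.0653), W72_BN607 replicate 2 (0.0786) or W72_BN607 replicate 3 (0.0754). DESeq2 and limma on log2(FPKM + 1) also called both loci. The limma values were smaller, -4.43 for MSTRG.34414 and -4.37 for MSTRG.34411, on a scale that understates changes of loci near 0.

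BN207 stood between the other varieties for both 7B loci, and neither of its differences passed. Against ZM22 the edgeR estimates were -2.80 ± 1.47 for MSTRG.34414 (adjusted p = 0.364) and -2.48 ± 1.48 for MSTRG.34411 (adjusted p = 0.435), beside 4.63% of loci called in that contrast. Without W72_BN207 replicate 1 they were -2.52 and -2.20. Neither locus reached an unadjusted p below 0.05, which 16.8% of all loci did. From BN207 to BN607 the estimates were -4.08 ± 1.58 (adjusted p = 0.343) and -6.47 ± 1.81 (adjusted p = 0.111), beside 1.52% of loci called, and -4.36 and -6.75 without that library, with adjusted p of 0.196 and 0.0601. Both were among the 9.53% of loci at an unadjusted edgeR p below 0.05 in that contrast, and DESeq2 called both (adjusted p = 0.0192 and 0.000235). The order of the means was ZM22, BN207 and BN607 for both, and only the difference between ZM22 and BN607 passed the adjusted threshold of the edgeR fit.

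**Figure D2:**
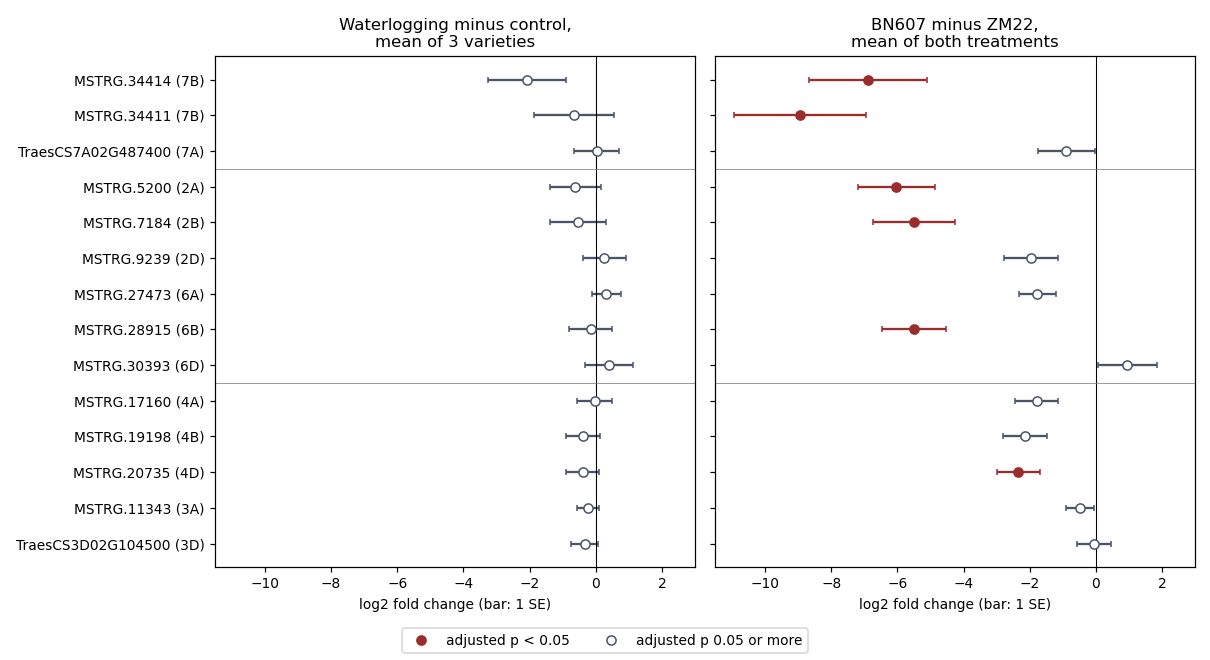
Log2 fold change with 1 SE from the edgeR fit for the 14 tested loci, on the left for waterlogging minus control averaged over varieties and on the right for BN607 minus ZM22 averaged over treatments; filled red points have an adjusted p below 0.05, and grey lines separate the described loci, the other L-lactate dehydrogenase loci and the pyruvate decarboxylase loci. No point on the left is filled, and 6 are filled on the right, all below 0. Of all tested loci, 0.00197% were called in the contrast on the left, and 6.80% were called lower in that on the right.

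The 7B loci rose and fell together from library to library. Over 18 libraries their log2(FPKM + 1) values had a Pearson r of 0.96 and a Spearman rho of 0.80. Where they summed to at least 10 FPKM, in 8 libraries, MSTRG.34414 contributed between 49.8% and 69.4% of the sum, with a median of 62.7%. MSTRG.34414 was less closely matched by the 7A copy (r = 0.35), and its correlation with the 7D copy was 0.81. These are descriptions over libraries that share varieties and depth.

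The genes beside the 7B copies had the same pattern. Among all tested loci outside the 4, the one most like MSTRG.34414 by Pearson r over the 18 libraries was MSTRG.34412 (TraesCS7B02G317600, r = 0.948), described as a 14 kDa proline-rich protein DC2.15 and lying 259 bases beyond the end of MSTRG.34411 on the opposite strand. MSTRG.32872 on chromosome 7A (TraesCS7A02G417800, r = 0.947) and MSTRG.16079 on chromosome 3D (TraesCS3D02G324800, r = 0.941) came next, and neither carries an informative description. The table lists 7 loci from 50000 bases before the first 7B copy to 50000 bases after the other, and 4 of them were tested. The fourth, MSTRG.34413 (TraesCS7B02G317800, positions 567882800 to 567883183), carries the same DC2.15 description and lies next to MSTRG.34414, so that each L-lactate dehydrogenase locus has a DC2.15 locus on the opposite strand between it and the other copy. It was picked after its values had been seen.

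Both DC2.15 loci were lower in BN607 as well. Their tests are not separate support, since MSTRG.34412 was chosen by its correlation with MSTRG.34414 over these same libraries. MSTRG.34413 was chosen with its values known. MSTRG.34412 averaged 7.90 FPKM in ZM22, 1.67 in BN207 and 0.00863 in BN607, a log2 difference between BN607 and ZM22 of -9.99 (edgeR adjusted p = 0.0176), which did not pass without C72_BN607 replicate 2, W72_BN607 replicate 2 or W72_BN607 replicate 3 (edgeR adjusted p = 0.0529, 0.0577 and 0.0573). MSTRG.34413 averaged 5.28, 0.878 and 0.096 FPKM, a difference of -7.87 (edgeR adjusted p = 0.0101). On the log2(FPKM + 1) scale of limma these differences were -2.74 and -2.10. The 3 untested loci of the stretch averaged at most 0.0495 FPKM. All 4 expressed loci within it were thus low in BN607 on average.

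Within chromosome group 7, some shares of the summed L-lactate dehydrogenase FPKM differed between ZM22 and BN607. A share depends on the levels of the other loci, so these tests are not separate from the lower 7B levels. MSTRG.34411 supplied 32.4% ± 10.8 (SD, n = 6) of the summed FPKM of the 4 loci in ZM22 and 9.76% ± 10.8 in BN607, a difference of -22.7 percentage points (exact permutation test over libraries, two-sided, p = 0.00649, adjusted p = 0.0317 over 39 share comparisons). The adjusted p was 0.0537 without C72_ZM22 replicate 1, C72_ZM22 replicate 2 or W72_ZM22 replicate 1 and 0.0614 without W72_ZM22 replicate 3. The 7D copy supplied 0.44% ± 0.263 in ZM22 and 0% in BN607, a difference of -0.44 points (exact permutation p = 0.0152, adjusted p = 0.0455). The 7A copy supplied 12.9% ± 28.8 in ZM22 and 61.7% ± 33.2 in BN607, which did not pass after adjustment (exact p = 0.0433, adjusted p = 0.0933). In ZM22 the 7A share was 0.394% to 1.41% in 5 libraries and 71.6% in C72_ZM22 replicate 3, where the 4 loci summed to 1.80 FPKM. Left out, that library took the difference of the 7A copy from 48.8 to 60.5 percentage points and its adjusted p to 0.013, and leaving out C72_BN607 replicate 3 brought them to 60.3 points and 0.0394. Where the sum is near 1 FPKM a share rests on few fragments, as in most BN607 libraries, whose sums ran from 0.432 to 8.62 FPKM.

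The spread inside C72_ZM22 and C72_BN207 went with the cell division genes, and also with alpha-amylase. In C72_ZM22, replicates 1 and 2 had a cell division level (median log2(FPKM + 1) over 232 tested histone and mitotic cyclin loci) of 1.32 and 1.43, and replicate 3, with the low 7B values, had 4.2. In C72_BN207 the level was 1.64 in replicate 1, where MSTRG.34414 was highest, and 5.00 and 5.68 in the others. W72_ZM22 replicate 2 did not follow this, with a cell division level of 4.82 and 34.0 FPKM of MSTRG.34414. In C72_BN607, MSTRG.34414 was highest in replicate 3, at 8.23 FPKM, where the level was also highest, at 5.41. In W72_BN207 it was at 14.7 FPKM in replicate 2 and 0.952 FPKM in replicate 3, at levels of 3.25 and 2.63. The alpha-amylase level (median log2(FPKM + 1) over 33 tested loci) was 9.64, 7.32 and 4.57 in C72_ZM22. It was 9.65, 8.88 and 6.47 in C72_BN207 and 3.72, 4.69 and 7.13 in C72_BN607. W72_BN207 did not follow this, with 7.99 in replicate 2 and 10.32 in replicate 3. C72_ZM22 replicate 3 also had the highest Casparian strip sum, 8.24 FPKM. The part of these tissues was not tested.

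Over 18 libraries, the 7A copy had the closest relation with the cell division level among the 4 described loci. The permutations here and below ran over all 18 libraries without regard to variety. Their p-values therefore also take in differences between varieties. Its Pearson r was -0.79 (permutation p = 6e-05, adjusted p = 0.0004 over 15 loci) and its Spearman rho -0.80 (permutation p = 8e-05, adjusted p = 0.0012). It was -0.78 without C72_ZM22 replicates 1 and 2, which lie farthest from the median of the cell division level. Within ZM22, BN207 and BN607 it was -0.56, -0.94 and -0.89 (6 libraries each). Leaving out W72_BN207 replicate 1 moved no r of the 4 loci, pooled or within BN207, by more than 0.01.

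For MSTRG.34414 the values were r = -0.65 (permutation p = 0.0047, adjusted p = 0.0079), rho = -0.65 (permutation p = 0.0045, adjusted p = 0.011), r = -0.52 without the same libraries, and -0.69, -0.52 and 0.16 within the varieties. For MSTRG.34411 they were r = -0.68 (permutation p = 0.0029, adjusted p = 0.0054), rho = -0.60 (permutation p = 0.0098, adjusted p = 0.015), r = -0.56 without them, and -0.66, -0.48 and -0.01 within the varieties. The relation of the 7B copies thus held within ZM22 and BN207 in sign and not within BN607. Both are near 0 there, apart from 8.23 FPKM of MSTRG.34414 in C72_BN607 replicate 3. For TraesCS7D02G410800 r was -0.64 (permutation p = 0.0017, adjusted p = 0.005) and rho -0.65 (permutation p = 0.004, adjusted p = 0.011), with -0.53 without C72_ZM22 replicates 1 and 2 and -0.69 and -0.68 within ZM22 and BN207. Coded loci outside the described ones shared the negative sign. The L-lactate dehydrogenase locus MSTRG.9239 had r = -0.83 (-0.82, -0.92 and -0.58 within ZM22, BN207 and BN607). MSTRG.28915, MSTRG.5200 and MSTRG.7184 had -0.72, -0.68 and -0.66. The pyruvate decarboxylase loci MSTRG.17160, MSTRG.19198 and MSTRG.20735 had -0.62, -0.55 and -0.53. For MSTRG.27473 r was -0.15, and it was positive for MSTRG.30393 (0.83), TraesCS3D02G104500 (0.49) and MSTRG.11343 (0.4). BN607 libraries had levels of 2.59 to 6.26 and ZM22 libraries of 1.32 to 4.82, and the part of dividing tissue in the difference between varieties was not tested. Gliadins and glutenins, the storage proteins of starchy endosperm, summed to 485 FPKM over 87 loci in C72_ZM22 replicate 1 and to at most 128 FPKM in any other library, and their part was not tested either.

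**Figure D3:**
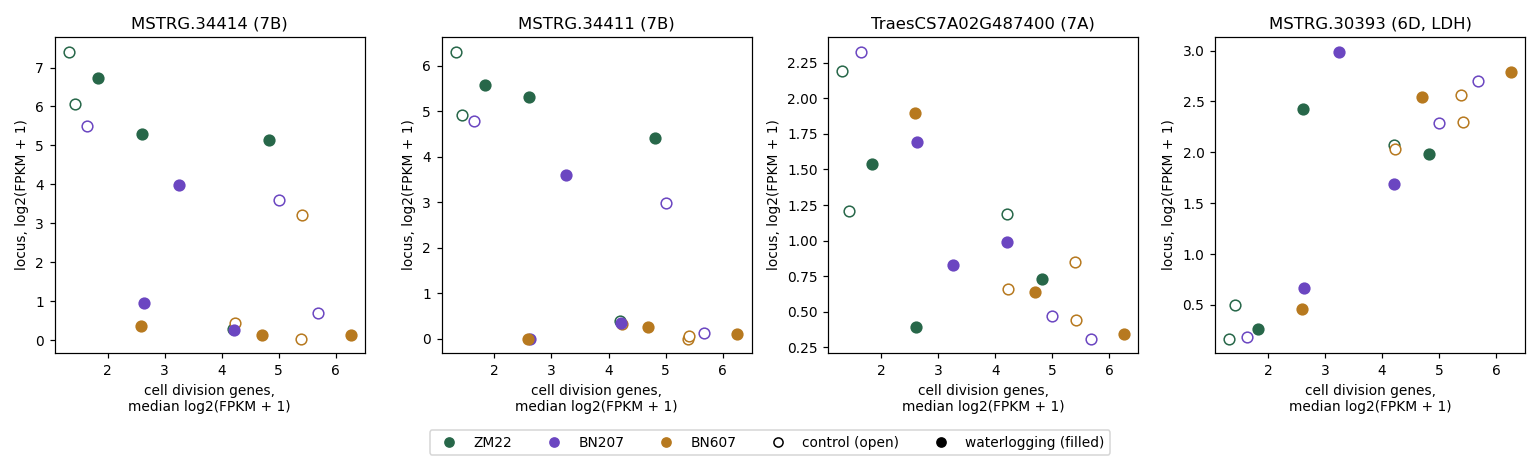
Level of the 7B and 7A L-lactate dehydrogenase loci and of MSTRG.30393 (6D) against the median level of 232 tested cell division loci, both as log2(FPKM + 1), 1 point per library, coloured by variety, with control open and waterlogging filled. The 7A copy falls along the axis (r = -0.79) and the 6D locus rises (r = 0.83). The 7B copies fall without BN607, whose libraries lie near 0 apart from C72_BN607 replicate 3 at 8.23 FPKM of MSTRG.34414.

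The L-lactate dehydrogenase loci known only by their code, on chromosome groups 2 and 6, had larger summed levels than the 4 described ones. The 6 tested loci summed to a median of 175 FPKM in ZM22, 46.2 in BN207 and 20.1 in BN607, against 87.3, 10.7 and 1.00 FPKM for the 4 described loci. Without W72_BN207 replicate 1 the BN207 medians were 59.1 and 18.3 FPKM. The seventh locus, TraesCS6B02G029700, gave 15 counts in 1 library and was not tested. In waterlogging minus control, the 6 loci ranged from -1.77 to 1.05 in the varieties with an edgeR adjusted p of 1 for each, and 0 reached an unadjusted p below 0.05. The range was the same without that library.

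The A, B and D copies of these groups differed unequally between varieties. On group 2, MSTRG.5200 (TraesCS2A02G076600, chromosome 2A) was at 98.4, 64.4 and 5.09 FPKM in C72_ZM22 and at 45.0, 47.5 and 57.9 FPKM in W72_ZM22. Its BN607 values were 0.606, 0.352 and 4.93 FPKM in the control and 0.488, 0.613 and 0.309 FPKM after waterlogging, all below the lowest ZM22 library. It fell by 6.03 ± 1.16 on the log2 scale (edgeR adjusted p = 0.00472). MSTRG.7184 (TraesCS2B02G091400, chromosome 2B) averaged 25.2 ± 21.8 FPKM (SD, n = 6) in ZM22, 1.07 ± 0.802 in BN207 and 0.652 ± 0.734 in BN607. It was lower in BN607 than in ZM22 (-5.49 ± 1.24, edgeR adjusted p = 0.0124) and lower in BN207 than in ZM22 (-4.45 ± 1.18, edgeR adjusted p = 0.0444). The latter call held in 4 of 18 fits that left out 1 library, and was -4.23 with an edgeR adjusted p of 0.0977 without W72_BN207 replicate 1. MSTRG.9239 (TraesCS2D02G075200, chromosome 2D) averaged 46.8 ± 37.2, 27.9 ± 19.1 and 13.6 ± 11.4 FPKM and did not pass (-1.96 ± 0.83, edgeR adjusted p = 0.143).

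The 2D copy made up 39.1% ± 15.1 (SD, n = 6) of the group 2 sum in ZM22 and 86.5% ± 10.4 in BN607, a difference of 47.4 percentage points (exact permutation p = 0.00216, adjusted p = 0.0281 over 39 comparisons). The 2A copy went the other way, from 44.2% ± 9.94 to 8.77% ± 7.18, a difference of -35.4 points with the same exact p and adjusted p. Both differences held when any of the 12 libraries was left out. The shares of a group make up its whole sum in each library, so these opposite moves are not separate results. The mean level of the 2D copy was itself lower in BN607 (13.6 FPKM) than in ZM22 (46.8 FPKM). Between BN207 and ZM22 the 2D share was higher in BN207 by 30.0 points (exact permutation p = 0.00649, adjusted p = 0.0317), and by 25.2 points without W72_BN207 replicate 1 (adjusted p = 0.0422). Over the 13 loci of the 4 groups, 5 shares differed between BN207 and ZM22 and 1 between BN607 and BN207, against 3 and 4 without that library. The other BN207 and ZM22 differences were those of the 4D and 4A pyruvate decarboxylases, of the 2B copy (-14.1 points, exact permutation p = 0.0152, adjusted p = 0.0455, and 0.0633 without that library) and of the 7D copy (-0.395 points, exact permutation p = 0.0152, adjusted p = 0.0455, and 0.0563). From BN207 to BN607 the 2A share fell by 19.6 points (exact permutation p = 0.0152, adjusted p = 0.0455), and without that library by 24.3 points (adjusted p = 0.0211). Without it the 2D (22.2 points), 6A (14.2) and 6B (-39.0) shares were called as well (exact permutation, adjusted p = 0.0422 for each). Of 12 tests without 1 library, the BN207 and ZM22 call was lost in 7 for the 2D, 10 for the 2B and 11 for the 7D share. The BN607 and BN207 call of the 2A share was lost in 10.

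On group 6, the B copy was lower in BN607 than in ZM22, as the 7B and 2A loci were. MSTRG.28915 (TraesCS6B02G116700) averaged 27.2 ± 16.1 FPKM (SD, n = 6) in ZM22, 6.94 ± 5.49 in BN207 and 0.747 ± 0.385 in BN607. The BN607 and ZM22 libraries did not overlap, but the highest BN607 value was 1.49 FPKM and the lowest ZM22 value 1.55 FPKM. Of all tested loci, 2.79% lay lower in BN607 without overlap. MSTRG.28915 fell by 5.49 ± 0.96 (edgeR adjusted p = 0.00234). From BN207 to BN607 MSTRG.28915 and the 2A locus MSTRG.5200 did not pass with all libraries (-3.54 and -4.36, edgeR adjusted p = 0.0624 and 0.0617). Both passed without W72_BN207 replicate 1 (-3.82 and -4.64, edgeR adjusted p = 0.00995 and 0.0119) and without C72_ZM22 replicate 3 (edgeR adjusted p = 0.032 and 0.0491). Its share of the group fell from 64.4% ± 21.8 to 13.8% ± 12.9, a difference of -50.6 points (exact permutation p = 0.00433, adjusted p = 0.0317). Leaving out C72_ZM22 replicate 1 or 2 or W72_ZM22 replicate 1 brought the adjusted p to 0.0537, and leaving out W72_ZM22 replicate 3 to 0.0591. The A copy MSTRG.27473 went from 8.62 ± 5.15 to 3.24 ± 1.98 FPKM (-1.77 ± 0.55, edgeR adjusted p = 0.0539) and the D copy MSTRG.30393 from 1.88 ± 1.86 to 3.84 ± 1.95 FPKM (0.95 ± 0.90, edgeR adjusted p = 0.507). As the B share fell, the A share rose by 15.8 points (exact permutation p = 0.00216, adjusted p = 0.0281). The D share rose by 34.8 points (exact permutation p = 0.00649, adjusted p = 0.0317). These are not separate from the fall of the B share. The 6D locus was positively related to the cell division level (r = 0.83, permutation p = 8e-05, adjusted p = 0.0004; rho = 0.76, permutation p = 0.00029, adjusted p = 0.0018; r = 0.77 without C72_ZM22 replicates 1 and 2; 0.78, 0.75 and 0.93 within ZM22, BN207 and BN607), opposite in sign to the 4 described loci.

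Pyruvate decarboxylase, read through its code, came mainly from 1 locus on each group 4 chromosome. The 5 tested loci summed to a median of 397 FPKM in ZM22, 116 in BN207 (109 without W72_BN207 replicate 1) and 125 in BN607. In W72_BN207 replicate 2 they summed to 30.0 FPKM, beside 26.6 for the 4 described L-lactate dehydrogenase loci and 59.1 for the 6 others. MSTRG.20735 (TraesCS4D02G194200, chromosome 4D, 337150585 to 337153622) averaged 101 FPKM over the 18 libraries, MSTRG.17160 (TraesCS4A02G110900, chromosome 4A) 82.0 and MSTRG.19198 (TraesCS4B02G193200, chromosome 4B) 63.5. Each was detected at 7.88 FPKM or more in every library. The group 3 loci MSTRG.11343 and TraesCS3D02G104500 averaged 2.60 and 2.21 FPKM. The other 9 coded loci were not tested, with means of at most 0.60 FPKM and 3 of them at 0 in every library. These loci are described in the table only as hypothetical, predicted or unnamed proteins, which is why the text search missed them.

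MSTRG.20735 gave 288, 218 and 69.1 FPKM in C72_ZM22 and 455, 75.8 and 129 FPKM in W72_ZM22. It gave 101, 28.7 and 36.9 FPKM in C72_BN207 and 45.8, 9.54 and 44.1 FPKM in W72_BN207. In BN607 it gave 52.4, 35.4 and 109 FPKM under control and 32.2, 51.4 and 31.7 FPKM after waterlogging. Control and waterlogged libraries overlapped in each variety. The response of the 5 tested pyruvate decarboxylase loci lay between -0.80 and 0.38 in the 3 varieties, with an edgeR adjusted p of 1 for each and 0 loci at an unadjusted p below 0.05 in any of them. Without W72_BN207 replicate 1 it lay between -0.94 and 0.27, with 0 loci at an unadjusted p below 0.05.

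The level of MSTRG.20735 was lower in BN607 than in ZM22 (52.0 ± 29.5 against 206 ± 149 FPKM, SD, n = 6), by -2.34 ± 0.65 (edgeR adjusted p = 0.0330). The call was lost in 8 of the 18 fits that left out 1 library, namely any of C72_ZM22 replicates 1 and 2, W72_ZM22 replicate 1, C72_BN607 replicates 1 and 2 and the 3 replicates of W72_BN607, with adjusted p up to 0.107. The 4B and 4A loci had differences of -2.14 ± 0.66 and -1.79 ± 0.66 (edgeR adjusted p = 0.0519 and 0.0996). The 4D copy held 42.6% ± 3.93 (SD, n = 6) of the summed FPKM of the 3 loci in ZM22 and 37.6% ± 5.13 in BN607, a difference of -4.96 percentage points that did not pass (exact permutation p = 0.0736, adjusted p = 0.137). In BN207 its share was 34.7% ± 4.91, a difference from ZM22 of -7.86 points (exact permutation p = 0.0152, adjusted p = 0.0455), and that of the 4A copy was 37.4% ± 3.3, a difference of 6.08 points (exact permutation p = 0.00433, adjusted p = 0.0317). Without W72_BN207 replicate 1 these differences were -8.70 and 5.05 points (adjusted p = 0.0422 for both). The 4D call was lost in 9 and the 4A call in 4 of the 12 tests without 1 library. Their values were closely tied to each other (r from 0.95 to 0.96 over 18 libraries) and less to MSTRG.34414 (r from 0.58 to 0.67). The non-member loci most like MSTRG.20735 were MSTRG.19198 (r = 0.961), the cytosolic pyruvate kinase MSTRG.8978 (r = 0.957), which makes the pyruvate that these enzymes use, and MSTRG.17160 (r = 0.957).

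**Figure D4:**
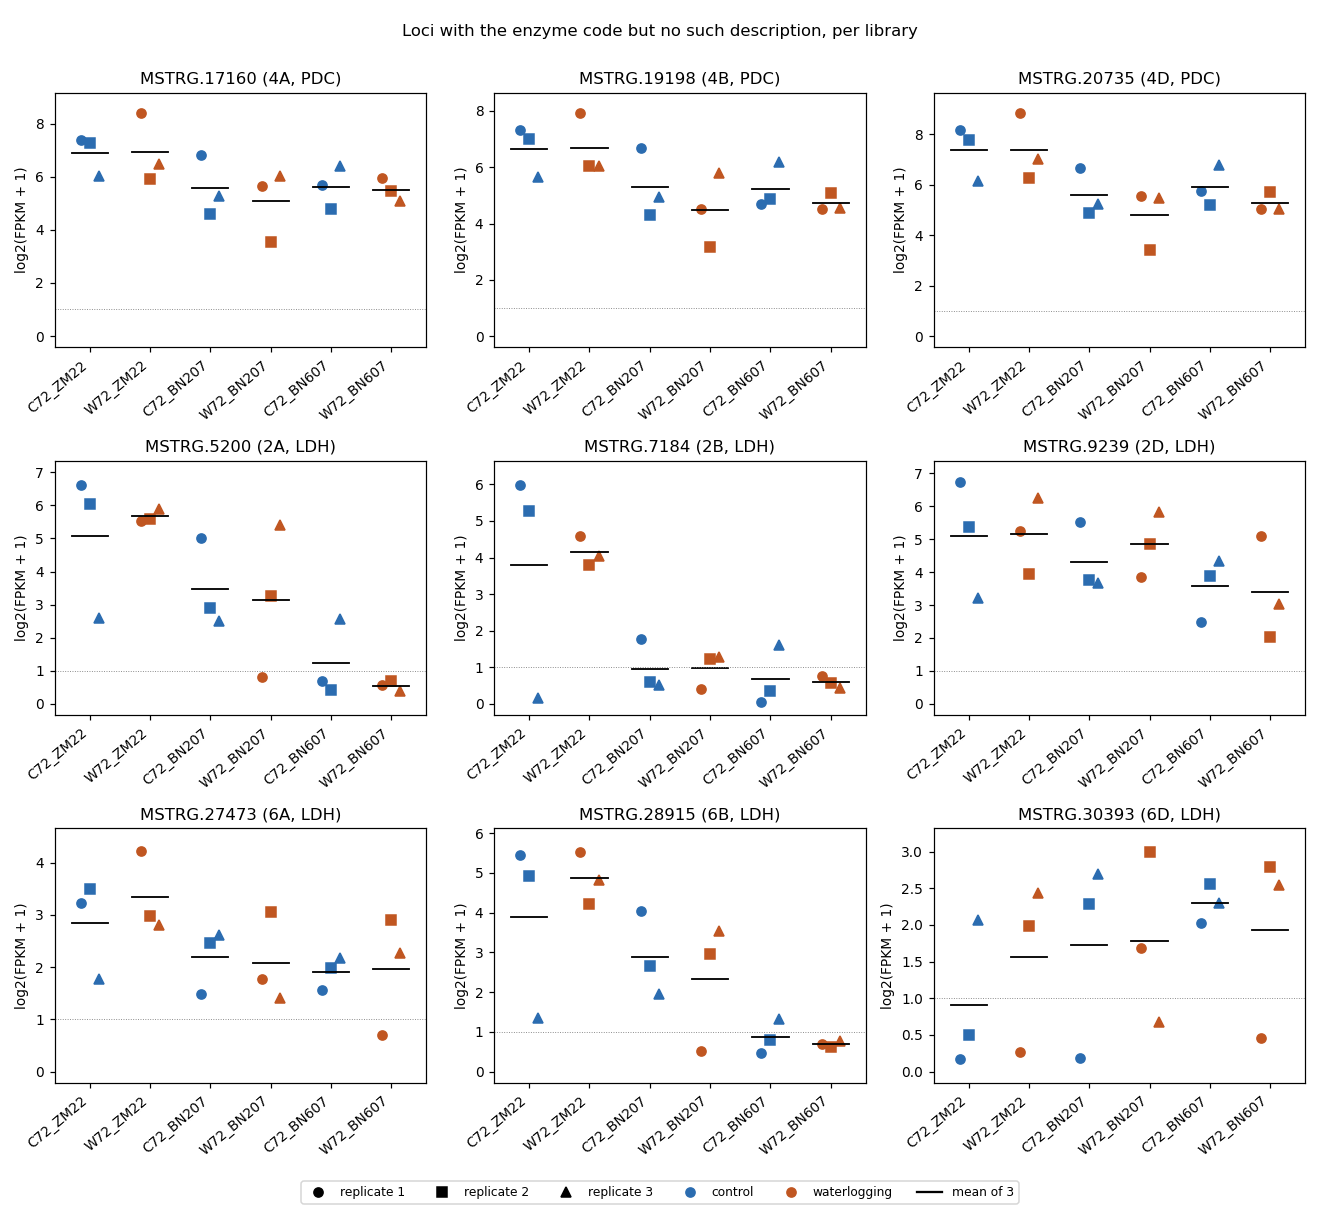
Level of the 9 loci of groups 4, 2 and 6 that carry the pyruvate decarboxylase (PDC) or L-lactate dehydrogenase (LDH) code, as log2(FPKM + 1) per library, by group, with control in blue, waterlogging in orange, a bar for the mean of 3 libraries and a dotted line at 1 FPKM. The 2A, 2B and 6B loci are low in BN607, and the group 4 loci stay at 7.88 FPKM or more everywhere.

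The neighbouring steps were read from lists of descriptions. In 8 lists with 101 tested loci, no locus passed the adjusted edgeR threshold for waterlogging in any variety, with 0, 3 and 1 at an unadjusted p below 0.05 in ZM22, BN207 and BN607. Of all tested loci, 1.09%, 1.89% and 2.12% lay below that unadjusted threshold. From ZM22 to BN607, 10 of the 101 were lower and 0 higher, beside 6.80% and 3.84% of all tested loci. Of 31 tested alcohol dehydrogenase loci, which make ethanol from acetaldehyde, 5 were lower in BN607 and 0 higher. The most abundant, MSTRG.17520 (TraesCS4A02G202100, ADH1A), averaged 570 ± 351 FPKM (SD, n = 6) in ZM22, 162 ± 65.3 in BN207 and 179 ± 70.8 in BN607, a BN607 minus ZM22 difference of -1.98 ± 0.51 (edgeR adjusted p = 0.0250). MSTRG.18792 (4B, -2.60), MSTRG.20357 (4D, -2.32), MSTRG.20359 (4D, -3.51) and MSTRG.3554 (1D, -2.27) were the other alcohol dehydrogenase loci called. Each of the 5 calls was lost in 3 to 8 of 18 fits without 1 library (any of C72_ZM22 replicates 1 and 2, W72_ZM22 replicate 1, the 3 C72_BN607 libraries and W72_BN607 replicates 2 and 3), with edgeR adjusted p up to 0.132, and limma on log2(FPKM + 1) did not call MSTRG.18792, MSTRG.20357 or MSTRG.20359 (adjusted p = 0.0507, 0.0503 and 0.0844). From ZM22 to BN207, MSTRG.3554 (-2.39 ± 0.57, edgeR adjusted p = 0.0256) and MSTRG.186 (1A, -2.03 ± 0.53, edgeR adjusted p = 0.0431) were lower, and neither passed without W72_BN207 replicate 1 (adjusted p = 0.0584 and 0.0908). The former call was lost in 7 and the latter in 14 of the 18 fits without 1 library. Of all tested loci, 4.63% were called between BN207 and ZM22.

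Of 15 tested pyruvate kinase loci, 3 were lower in BN607 than in ZM22, beside 6.80% of all tested loci. All 3 are cytosolic isozymes on group 2: MSTRG.7018 (2A, -2.04 ± 0.53), MSTRG.8978 (2B, -1.85 ± 0.53) and MSTRG.11000 (2D, -1.93 ± 0.51). These calls were lost in 7 or 8 of 18 fits without 1 of the same libraries, with edgeR adjusted p up to 0.118. The most abundant pyruvate kinase, MSTRG.23819, averaged 173 FPKM. Of 27 tested loci of the pyruvate dehydrogenase complex, which feeds pyruvate to respiration, 2 were lower, a share close to the 6.80% of all tested loci. Both are acetyltransferase component loci, MSTRG.27339 (6A, -1.70 ± 0.21) and MSTRG.30274 (6D, -0.70 ± 0.16). The latter had an edgeR adjusted p of 0.0531 without C72_BN607 replicate 2 and a limma adjusted p of 0.0644. The most abundant locus of the complex was MSTRG.29811 at 51.0 FPKM. MSTRG.27339 was also lower in BN607 than in BN207 (-1.24 ± 0.21, edgeR adjusted p = 0.00979, and -1.40 without W72_BN207 replicate 1).

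The remaining lists had no call between BN607 and ZM22. They were 11 tested aldehyde dehydrogenase family 2 loci (most abundant MSTRG.35440, 90 FPKM), 4 pyruvate phosphate dikinase loci (MSTRG.2648, 43.2 FPKM), 6 alanine aminotransferase loci (MSTRG.3651, 178 FPKM), 2 non-symbiotic haemoglobin loci (MSTRG.4681, 10.7 FPKM) and 5 plant cysteine oxidase loci (MSTRG.28123, 5.42 FPKM), while 0 loci are described as D-lactate dehydrogenase. Beside a median difference of 0.06 over all tested loci, the medians were -0.45 over the alcohol dehydrogenases, -0.29 over the aldehyde dehydrogenases, -0.19 over the pyruvate kinases, 0.08 over the pyruvate dehydrogenase complex, 0.23 over the cysteine oxidases, 0.36 over the alanine aminotransferases, 0.63 over the haemoglobins and 1.18 over the dikinases.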

How the data were processed

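Poly(A) RNA of 18 seed libraries was sequenced. The authors trimmed the reads, aligned them to IWGSC RefSeq v1.0 (HISAT and StringTie are named in the submitters' processing notes, versions not given in the sources used here) and merged the assembled transcripts of all libraries. The deposited FPKM values were made by the authors with StringTie. The deposited expected counts are whole numbers, not normalized, and their sums behave like estimates from coverage. They were used unchanged.

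Loci that reached 1 FPKM in 3 or more libraries (50656) were fitted in edgeR 4.0.16 (R 4.3.3; quasi-likelihood, TMM, 1 mean per group, Benjamini-Hochberg over all tested loci, threshold 0.05). Contrasts were waterlogging minus control per variety, their average and pairwise differences, and variety differences averaged over treatments. Shares were tested by exact permutation of 6 against 6 libraries, correlations by 100000 permutations. DESeq2 1.42.0 and limma 3.58.1 (pseudocounts 1 and 0.1), library size factors, filter, count scale, sample set and leaving out each library were alternatives. On simulated data for the ZM22 response over 50656 genes, 0, 14, 18 and 33 of 50 genes changed 2-, 4-, 8- and 16-fold were found.

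All loci found by the description rule are named, with the 3 loci most correlated with the most abundant of each enzyme, and in each pathway list the most abundant and any called locus. The members, lists and rules were chosen with earlier results of these data known. Replicate numbers are taken as names: same-numbered control and waterlogged libraries deviated together (correlation above 0.1) in 3 of 9 pairs, from -0.51 to 0.58. The labels do not say that replicates are separate cultures, so the p-values measure the spread between libraries. A variety transcript, chosen with the scored library set aside, had at least 2 FPKM in all but at most 1 of the libraries of its variety and more than 0.1 FPKM in at most 1 library of the other varieties, and was detected above 0.5 FPKM. The files' annotation pairs loci with TraesCS names, of which 0 were matched to the RefSeq gene table at hand, so no sequence is printed.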

Additional observations from a re-analysis of the deposited data

How the results depend on the processing

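No called difference of a described locus between varieties changed direction under any alternative run. The 2 calls from ZM22 to BN607 held in all 4 settings that kept every library, at -6.91 to -4.43 for MSTRG.34414 and -9.02 to -4.37 for MSTRG.34411, and the DC2.15 loci gave -10.01 to -2.74 and -7.90 to -2.10. The value nearest 0 of each is that of limma on log2(FPKM + 1). The responses to waterlogging were uncalled throughout and some changed sign. In ZM22 the change of MSTRG.34414 was 1.14 in limma on log2(FPKM + 1) and 1.77 with a pseudocount of 0.1, and that of MSTRG.34411 was 1.23 and 1.78. For MSTRG.34411 in BN607 limma with 0.1 gave 0.03 and counts divided by 4 gave 0.04. For TraesCS7A02G487400 limma gave 0.13 and 0.57 in BN207, -0.07 and -0.06 on average, and -0.10 for BN207 minus ZM22 (pseudocount 1). Leaving out 1 library gave, for MSTRG.34414, -1.47 to 0.69 in ZM22 and -4.80 to 0.06 in BN607. For MSTRG.34411 it gave -0.80 to 1.08 in ZM22, -6.53 to 0.23 in BN207, -1.08 to 2.39 in BN607 and -2.26 to 0.16 on average. For TraesCS7A02G487400 it gave -1.03 to 2.32 in BN207, -0.50 to 2.04 in BN607, -0.65 to 0.89 on average, -1.18 to 0.74 for BN207 minus ZM22 and -2.02 to 0.29 for BN607 minus BN207. Shares of BN607 minus ZM22 ranged without 1 library from -39.1 to -20.6 percentage points for MSTRG.34414, -25.8 to -19.2 for MSTRG.34411, 41.8 to 60.5 for TraesCS7A02G487400 and -59.2 to -46.8 for MSTRG.28915. Those of BN207 minus ZM22 ranged from -0.483 to -0.323 for TraesCS7D02G410800, -9.06 to -6.33 for MSTRG.20735, 5.05 to 6.99 for MSTRG.17160, -17.3 to -12.2 for MSTRG.7184 and 25.2 to 34.4 for MSTRG.9239, and that of BN607 minus BN207 from -24.3 to -16.9 for MSTRG.5200. From ZM22 to BN607, DESeq2 also called MSTRG.17160, MSTRG.19198 and MSTRG.9239, and edgeR with DESeq2 size factors called MSTRG.19198 (adjusted p = 0.0496). The cause was not tested.

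The replicate numbers share only a number (3 of 9 pairs correlated above 0.1). With the replicate number as a block, 0 loci were called in ZM22 and 0 on average, and uncalled responses of 0.47 (MSTRG.34414, ZM22), 0.61 (MSTRG.34411, ZM22), 0.87 (MSTRG.34411, BN607) and 0.87 (TraesCS7A02G487400, BN207) changed sign.

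The number of loci called depended on the test. For the response it was 3 in ZM22, 0 in BN207, 0 in BN607 and 1 on average in edgeR, against 144, 274, 34 and 218 in DESeq2 and 412, 815, 669 and 772 at the study's thresholds (unadjusted p below 0.05 and a log2 fold change beyond 1). In ZM22 limma (both pseudocounts), the 6 libraries alone and counts divided by 4 each gave 0, in BN207 limma with 0.1 gave 1, and on average limma with 1 and counts divided by 4 gave 0. Differences of the response gave 2 (BN207 minus ZM22), 2 (BN607 minus ZM22) and 0 (BN607 minus BN207), against 232, 109 and 163 in DESeq2 and 0 and 0 in limma for the former pair. Variety differences gave 2346, 5394 and 769 in the same order, against 5261, 10123 and 2364 in DESeq2, and limma gave 1365 for BN607 minus BN207. Without 1 library the responses ranged from 2 to 8 in ZM22, 0 to 1 in BN607 and 0 to 4 on average, the differences from 1 to 7, 0 to 7 and 0 to 1, and the variety contrasts from 1393 to 3651, 2804 to 9614 (highest without C72_ZM22 replicate 3) and 305 to 2082 (highest without W72_BN207 replicate 1).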
